A study of Homo sapiens with 16 samples.

Results

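Broad open domains are here stretches of accessible chromatin that held a peak in every condition of this study and were wide on average over the conditions. They were chosen from 4 lists of peaks made by NicE-seq, in which an enzyme nicks accessible DNA in fixed nuclei, biotin is built in at the nicks and the labelled fragments are sequenced. Peaks of the 4 lists on chromosomes 1 to 22 and X were merged wherever they overlapped by at least 1 bp. A merged region was kept when it held exactly 1 peak of each list and the mean width of those 4 peaks was 1500 bp or more. This left 631 domains, out of 89581 regions with exactly 1 peak per list and 183659 merged regions in all. Widths therefore chose the domains, and every width below is given as a description. All 4 peaks reached 1500 bp at 381 of the 631 domains, and the narrowest single peak measured 987 bp, in the combination.

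The cells were U87, an established human glioblastoma line. The 4 groups were the combination of AsiDNA with belinostat, belinostat alone, AsiDNA alone and vehicle (DMSO). Each had 4 libraries and 1 peak list, 16 libraries in total. The titles of the libraries with AsiDNA alone also name DMSO. Belinostat, an inhibitor of histone deacetylases, was given at 1 µM for 24 h. AsiDNA is a short DNA duplex that mimics a double-strand break. The labels give no dose or duration for AsiDNA, and their protocols name MTU87 and LTAU87 cells without saying which libraries came from which, so the manner of AsiDNA exposure is not known here. All 4 groups were crosslinked with 1% formaldehyde. The genes CDKN2A and CDKN2B, which this line is known to have lost, held 0 peaks in each of the 4 lists.

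Open chromatin forms where nucleosomes are displaced or loosened, as at the starts of active genes, at enhancers and at genes read by RNA polymerase III. At a gene start the open stretch is usually short and lies over the promoter. Wider open stretches are known at strongly used CpG-island promoters and where several starts or regulatory elements lie side by side. Histone deacetylases remove acetyl groups from histone tails, and their inhibitors raise acetylation across much of the genome.

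Promoter sequence could be read for 345 of the 429 protein-coding genes that start in a domain away from the gene-poor stretches described below. The promoters shown, from RefSeq on GRCh38.p14, run from 250 bases before to 50 after the start, written 5′ to 3′ on the strand of the gene. They belong to 3 of the widest gene-start domains (PCID2, MAPK9 and DGKH), to 2 domains that were much narrower in both belinostat lists (NOTCH1 and REV3L) and to the gene start with the most even widths (ANKH). Capitals mark the GC box, GGGCGG or its complement CCGCCC, the letters bound by SP1-type factors.
PCID2, chr13:113208620-113208919, minus strand: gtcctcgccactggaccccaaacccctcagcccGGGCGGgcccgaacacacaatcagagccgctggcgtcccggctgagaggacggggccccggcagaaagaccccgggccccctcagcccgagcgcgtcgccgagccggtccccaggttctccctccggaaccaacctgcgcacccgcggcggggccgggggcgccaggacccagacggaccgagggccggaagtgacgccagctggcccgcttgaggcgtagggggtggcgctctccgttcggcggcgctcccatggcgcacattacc
MAPK9, chr5:180292034-180292333, minus strand: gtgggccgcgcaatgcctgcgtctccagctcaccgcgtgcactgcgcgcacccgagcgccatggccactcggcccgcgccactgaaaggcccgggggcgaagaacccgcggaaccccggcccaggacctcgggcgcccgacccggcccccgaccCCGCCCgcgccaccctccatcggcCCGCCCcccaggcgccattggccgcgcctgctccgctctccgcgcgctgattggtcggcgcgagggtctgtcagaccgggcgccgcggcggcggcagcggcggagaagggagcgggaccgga
DGKH, chr13:42039820-42040119, plus strand: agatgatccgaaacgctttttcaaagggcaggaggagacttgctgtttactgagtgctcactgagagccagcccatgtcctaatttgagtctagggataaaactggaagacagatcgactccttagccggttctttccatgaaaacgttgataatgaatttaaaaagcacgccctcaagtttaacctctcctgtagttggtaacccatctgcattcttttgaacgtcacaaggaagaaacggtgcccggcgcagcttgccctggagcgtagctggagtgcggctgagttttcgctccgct
NOTCH1, chr9:136545999-136546298, minus strand: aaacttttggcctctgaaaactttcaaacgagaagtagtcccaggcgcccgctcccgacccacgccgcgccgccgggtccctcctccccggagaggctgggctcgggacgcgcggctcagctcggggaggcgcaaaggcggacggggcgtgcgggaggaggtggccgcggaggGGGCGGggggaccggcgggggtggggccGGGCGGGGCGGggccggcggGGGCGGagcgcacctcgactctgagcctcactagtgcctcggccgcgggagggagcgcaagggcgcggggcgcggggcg
REV3L, chr6:111483662-111483961, minus strand: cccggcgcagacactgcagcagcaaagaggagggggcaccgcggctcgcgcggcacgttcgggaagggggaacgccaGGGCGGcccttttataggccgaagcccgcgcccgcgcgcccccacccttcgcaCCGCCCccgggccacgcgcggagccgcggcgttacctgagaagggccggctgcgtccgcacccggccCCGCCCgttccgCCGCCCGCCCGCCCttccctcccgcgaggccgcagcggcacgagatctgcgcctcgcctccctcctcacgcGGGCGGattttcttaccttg
ANKH, chr5:14871729-14872028, minus strand: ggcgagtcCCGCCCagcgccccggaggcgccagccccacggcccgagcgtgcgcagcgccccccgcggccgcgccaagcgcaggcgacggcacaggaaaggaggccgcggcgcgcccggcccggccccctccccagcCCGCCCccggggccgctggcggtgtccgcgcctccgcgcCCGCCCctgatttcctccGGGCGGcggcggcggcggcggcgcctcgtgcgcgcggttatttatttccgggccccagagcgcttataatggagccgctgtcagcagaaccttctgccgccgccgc
The REV3L promoter held 7 GC boxes, NOTCH1 and ANKH 4 each, MAPK9 2 and PCID2 1, while DGKH held 0 in this window. The DGKH window also stood apart in base composition, with 48.7% G or C, against 74.3% to 79.3% in the other windows shown. The windows of wide domains differed in CG pairs, with 47 in that of MAPK9 and 14 in that of DGKH. The DGKH window begins at 42039820, and its domain runs from 42039812 to 42042060, so the window covers only the left edge. The other windows lie further inside their domains. The DGKH values therefore describe that edge, and the letters in the rest of its domain were not read.

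Promoters in domains were richer in CG pairs and GC boxes than those in narrower regions. The GC box, searched on both strands, was present in 76.2% of the 345 domain promoters (95% Wilson interval 71.5% to 80.4%), in 70.2% of 8466 promoters in narrower regions and in 58.5% of all 15812 promoters. The median number of CG pairs per 100 bases was 10.0 in domain promoters, 8.67 in those of narrower regions and 7.33 in all. The median G and C content was 69.0% in domain promoters, 64.7% in those of narrower regions and 62.7% in all. The TATA box, TATAAA on either strand, was found in 3.77% of domain promoters, 5.91% of those in narrower regions and 9.64% of all. CCAAT, on either strand, was found in 32.5% of domain promoters, 38.2% of those in narrower regions and 36.3% of all. The CRE letters TGACGTCA, which read the same on both strands, were found in 0.87% of domain promoters, 3.71% of those in narrower regions and 2.59% of all. The enzyme nicks at CCA, CCG and CCT, and these letters made up a median of 15.7 per 100 bases in domain promoters, 14.7 in those of narrower regions and 14.3 in all. Letters that the enzyme uses were thus also more frequent in the promoters of domain genes. The sequences of the domains themselves were not read, and the part of these letters in the widths was not tested.

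The domains fell into 3 classes by position. A stretch of at least 2 Mb with no annotated gene of any kind marks, in this build, mainly the centromeres and the short arms of the acrocentric chromosomes, and 27 such stretches were found. The first class, called gene-poor flank here, holds 122 domains inside or within 1 Mb of such a stretch. The second holds 358 gene-start domains, with the start of a protein-coding gene inside them or within 1000 bp. The third holds the remaining 151, called distal. The classes were drawn after the data had been seen. The gene-poor flank took 19.3% of the domains (16.4% to 22.6%), against 1.88% of the 88950 narrower regions.

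A gene start lay at 57.5% of all domains (363 of 631, 95% interval 53.6% to 61.3%) and at 70.3% of those outside the gene-poor flanks (358 of 509, 66.2% to 74.1%). Among narrower regions the share was 11.4%. Regions of 1000 to 1500 bp, just under the threshold, already had a share of 57.8%, or 60.2% outside the flanks. The share at gene starts is therefore not particular to the domains when all are counted. Gene bodies held 11.7% of the domains and 43.9% of narrower regions, and the other domains lay between genes.

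**Figure D1:**
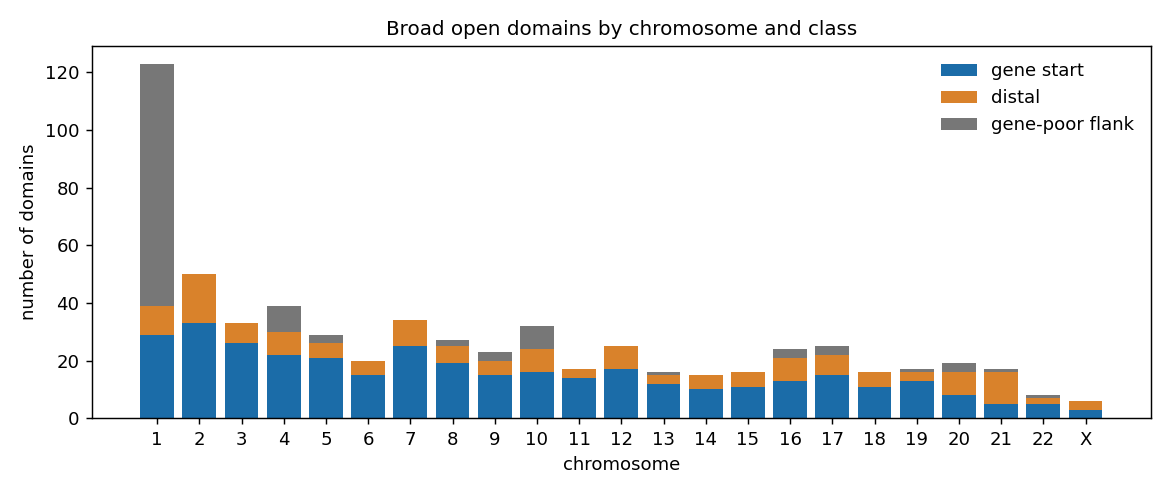
Number of broad open domains on each chromosome (bars), split into gene-start, distal and gene-poor flank domains (colours). Chromosome 1 holds 123 domains, of which 84 are gene-poor flank, and chromosome 2 follows with 50.

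Chromosome 1 held 123 of the 631 domains. Of these, 84 were gene-poor flank domains, and 76 of them lay between 122 and 126 Mb, where the hg38 build carries model sequences of the centromere. Chromosome 21 held 17 domains, 11 of them distal. Outside the flanks it had 13.8 domains per 1000 regions with 1 peak per list, and chromosome X had 3.03, with the other chromosomes between 4.39 and 7.73. The distal domains of chromosome 21 include several on its short arm, which carries ribosomal DNA and segmental copies.

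The widest domains of all were mostly gene-poor flank domains. Of the 20 widest, 17 were in this class, 3 were distal and 0 were at a gene start. The 4 widths of these 17 differed by as little as 21 bp and by as much as 757 bp. The widest, chr5:49656760-49661836, measured 5054 bp in the combination, 5061 bp with belinostat, 5067 bp with AsiDNA and 5077 bp with vehicle. It lies in a stretch of 4.70 Mb without a gene, 734 kb from EMB. The next, chr4:49116788-49121855, measured 5052 bp in the combination, 4975 bp with belinostat, 4708 bp with AsiDNA and 4969 bp with vehicle. It is 1 of 5 domains among the 20 widest that lie within 100 kb of CWH43. One more, chr19:24891539-24895711, measured 4163 bp in the combination, 4126 bp with belinostat, 4121 bp with AsiDNA and 4136 bp with vehicle. The first and the last of these lie inside a gene-free stretch, and the one near CWH43 lies within 1 Mb of one.

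Gene-poor flank domains lay in clusters. The median distance to the nearest other domain was 10.8 kb, against 1512 kb for gene-start domains and 997 kb for distal ones. Another domain lay within 100 kb of 106 of the 122 (86.9%), against 8.10% of gene-start domains and 9.93% of distal ones. Neither a mappability track nor a control list was used here. Whether width measures openness at these 122 domains was not tested, and results are given by class for that reason. It was not tested at the distal domains either, several of which lie on the short arm of chromosome 21.

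Gene-start domains were the broad promoters of the set. The widest lies over the shared start of CUL4A, the scaffold of a family of ubiquitin ligases, and PCID2, which takes part in messenger RNA export. It is chr13:113208047-113210404 and measured 2322 bp in the combination, 2348 bp with belinostat, 2260 bp with AsiDNA and 2288 bp with vehicle. Its 4 widths differed by 88 bp. The domain of MAPK9, which encodes the stress kinase JNK2, is chr5:180291381-180293857 and measured 2131 bp in the combination, 2177 bp with belinostat, 2477 bp with AsiDNA and 2378 bp with vehicle. Both belinostat lists were the narrower ones there. That of DGKH, a diacylglycerol kinase, is chr13:42039812-42042060 and measured 2011 bp in the combination, 2155 bp with belinostat, 2170 bp with AsiDNA and 2226 bp with vehicle.

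Others among the widest gene starts had mean widths of 1989 bp to 2117 bp. They include RASA2, a brake on RAS, NAB2, a corepressor of EGR factors, PCGF5, a Polycomb subunit, the ZBTB1 and ZBTB25 pair of zinc finger genes, WBP4, a spliceosome protein, CADPS2, which primes vesicles for release, and EPHA4, an ephrin receptor. HSP90AB1, the constitutive cytosolic HSP90, was wider in every treated list, with 2135 bp in the combination, 2157 bp with belinostat, 2033 bp with AsiDNA and 1829 bp with vehicle. NAB2 was narrowest with belinostat alone, with 2128 bp in the combination, 1838 bp with belinostat, 2193 bp with AsiDNA and 2277 bp with vehicle. These lists are chosen by width and no share of them is a result.

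Many gene-start domains cover more than 1 gene. More than 1 protein-coding start lay at 67 of the 358 (18.7%, 15.0% to 23.1%), against 12.6% of narrower gene-start regions. Starts on opposite strands were found at 45 (12.6%, 9.53% to 16.4%), against 8.35% of narrower gene-start regions. Regions of 1000 to 1500 bp had 17.8% and 12.4%, so the domains did not stand apart from these. The genes in domains were long, with a median of 48.0 kb, against 34.2 kb for regions of 1000 to 1500 bp and 27.9 kb for all narrower gene-start regions.

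The domains reached further into the gene than ahead of it. This was measured at the 234 gene-start domains with a single start of known strand. The median downstream reach was 941 bp in the combination, 971.5 bp with belinostat, 1011 bp with AsiDNA and 1023 bp with vehicle. The median upstream reach was 620 bp in the combination, 636 bp with belinostat, 675 bp with AsiDNA and 685 bp with vehicle. Between 64.5% and 65.8% of the domains reached further downstream, depending on the list. In gene-start regions of 1000 to 1500 bp the share was 53.6% to 58.2%, so the longer downstream arm was more frequent in the domains.

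Gene-start domains ranked lower than narrower gene-start regions by fold enrichment and higher by q-value. The fold enrichment of a peak is the authors' value, and it was ranked within each list over the 89581 regions. Gene-start domains had a median percentile of 58.9 in the combination, 58.6 with belinostat, 48.9 with AsiDNA and 49.4 with vehicle. Narrower gene-start regions stood higher, with 68.0 in the combination, 67.8 with belinostat, 59.3 with AsiDNA and 59.9 with vehicle. Distal domains lay between 50.5 and 52.8 in the 4 lists, and gene-poor flank domains between 41.0 and 54.9. By −log10 q, ranked over all peaks of a list, gene-start domains had a median percentile of 87.3 in the combination, 86.3 with belinostat, 82.2 with AsiDNA and 79.6 with vehicle. Narrower gene-start regions had 83.2 in the combination, 83.7 with belinostat, 78.5 with AsiDNA and 77.2 with vehicle.

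Genes for small RNAs of the splicing machinery recurred among the distal domains. A gene for a spliceosomal small nuclear RNA lay at 7 of the 631 domains (1.11%, 0.54% to 2.27%), against 0.071% of narrower regions and 0.46% of regions of 1000 to 1500 bp. Of these 7 domains, 6 were distal. They carried RNU1-2 (U1), RNU5B-1 (U5), RNU6-1 (U6), RNU4ATAC of the minor spliceosome and 2 unnamed copies on chromosome 17. The other, at the start of WDR74, holds RNU2-2 (U2) and measured 1968 bp in the combination, 1982 bp with belinostat, 1911 bp with AsiDNA and 2036 bp with vehicle. The domain of RNU1-2, chr1:16895393-16897576, was narrow in both belinostat lists, with 1574 bp in the combination, 1538 bp with belinostat, 2065 bp with AsiDNA and 2117 bp with vehicle. The domain of RNU5B-1, chr15:65303704-65305928, had the same order, with 1752 bp in the combination, 1733 bp with belinostat, 2106 bp with AsiDNA and 2215 bp with vehicle. These RNAs have near-identical copies elsewhere, so how their reads were placed is uncertain. RNU6-1 had another order, with 1852 bp in the combination, 1950 bp with belinostat, 1788 bp with AsiDNA and 1825 bp with vehicle.

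Transfer RNA genes lay at 8 domains (1.27%, 0.64% to 2.48%), against 0.25% of narrower regions and 0.84% of regions of 1000 to 1500 bp. The ribosomal RNA unit on chromosome 21 lay at 1 domain, chr21:8444721-8446913, which measured 2152 bp in the combination, 2137 bp with belinostat, 2188 bp with AsiDNA and 2186 bp with vehicle. MicroRNA genes lay at 7 domains (1.11%), against 0.39% of narrower regions and 1.26% of regions of 1000 to 1500 bp. Among these are MIRLET7I, a member of the let-7 family, in a distal domain, and MIR4674 within the NOTCH1 domain. Starts or ends of long noncoding RNA genes lay at 22.7% of the domains, 6.95% of narrower regions and 20.6% of regions of 1000 to 1500 bp. Genes of this last kind were thus about as frequent just under the threshold.

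The widest distal domains exceeded the widest one at a gene start. Several of the widest distal ones lie on the short arm of chromosome 21, and how reads were placed there was not tested. The domain chr4:188444850-188449236, 294 kb from TRIML1, measured 4209 bp in the combination, 4257 bp with belinostat, 4336 bp with AsiDNA and 4342 bp with vehicle. A domain in the body of TTC34, chr1:2652220-2655991, measured 3772 bp in the combination, 3696 bp with belinostat, 3439 bp with AsiDNA and 3430 bp with vehicle. Another lies in the body of DUX4, the germline transcription factor gene of the D4Z4 repeat, at chr4:190177548-190179999. It measured 2440 bp in the combination, 2369 bp with belinostat, 2416 bp with AsiDNA and 2380 bp with vehicle. DUX4 exists in many near-identical copies, so reads cannot be given to 1 of them and the value is uncertain.

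Across all 631 domains, both lists with belinostat were slightly narrower. The median width was 1626 bp in the combination, 1632 bp with belinostat, 1722 bp with AsiDNA and 1714 bp with vehicle. The lists also differed in how many wide peaks they held at all, with 920 peaks of 1500 bp or more in the combination, 1001 with belinostat, 1639 with AsiDNA and 1366 with vehicle. This order does not follow list length, which was 134865 peaks in the combination, 138937 with belinostat, 138273 with AsiDNA and 130318 with vehicle. Depth per library is unknown, and the part of sequencing depth in these widths was not tested.

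**Figure D2:**
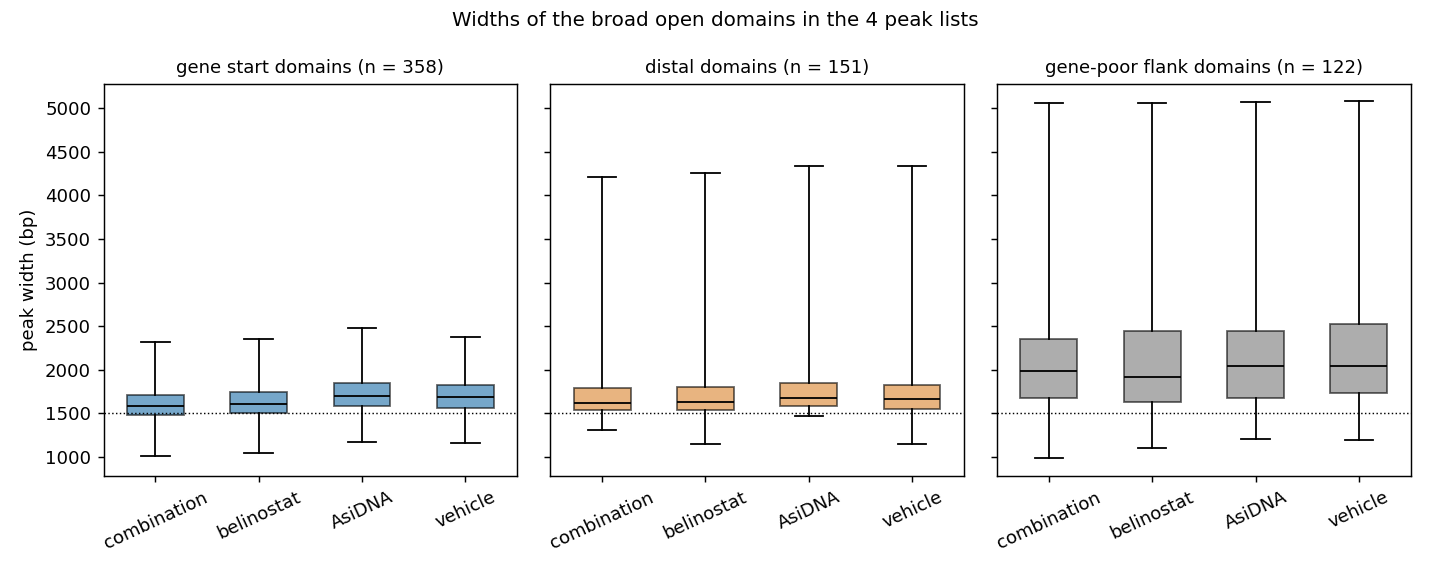
Peak widths in bp of the gene-start, distal and gene-poor flank domains (panels) in the 4 lists. Boxes span the quartiles with the median as a line, whiskers reach the narrowest and widest peak, and the dotted line marks 1500 bp. Gene-start medians are 1582 bp in the combination, 1603 bp with belinostat, 1700.5 bp with AsiDNA and 1684.5 bp with vehicle.

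The medians of the 4 lists differed in each class. Gene-start domains had medians of 1582 bp in the combination, 1603 bp with belinostat, 1700.5 bp with AsiDNA and 1684.5 bp with vehicle. Distal domains had 1622 bp in the combination, 1628 bp with belinostat, 1673 bp with AsiDNA and 1667 bp with vehicle. Gene-poor flank domains had 1982.5 bp in the combination, 1920 bp with belinostat, 2038 bp with AsiDNA and 2045.5 bp with vehicle. Each treatment is 1 list, so treatment and any technical difference between lists cannot be told apart.

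For belinostat over vehicle, the median of the domain-by-domain width ratio was -0.026 on the log2 scale (95% interval -0.034 to -0.015), a median difference of -30 bp. At gene starts it was -0.040 (-0.062 to -0.029), or -50.5 bp. It was -0.014 (-0.029 to 0.0028) at distal domains and -0.011 (-0.019 to -0.0038) at gene-poor flanks. These intervals cover the spread over domains and not that between cultures, since each group has 1 list. A domain was called wider when its peak was at least 25% wider in the first list of a pair, and narrower when it was at least 20% narrower, which is the same ratio turned round. With belinostat 54 domains (8.56%) were narrower, against a background of 15.3% of all regions, and 12 (1.90%) were wider, against 20.2%. Calls were fewer among domains in both directions. Narrower calls outnumbered wider ones in the domains, and wider calls prevailed over all regions. Regions of 1000 to 1500 bp had the balance of the domains, with 607 narrower and 200 wider of 4762.

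The combination over AsiDNA asks the same of belinostat on top of AsiDNA, with 2 other lists. The median was -0.049 (-0.062 to -0.038), or -60 bp, in all domains. Scaling the widths to a median log2 ratio of 0 over all regions turned it to 0.0089. Most of those regions are narrower, and the same change in bases is a larger log2 ratio there. In bases the median over all regions was -21 bp. At gene-start domains the median was -0.074 (-0.10 to -0.064), or -89 bp, and it kept its sign at -0.016 after scaling. It was -0.026 (-0.053 to -0.013) at distal domains and -0.0048 (-0.015 to 0.00094) at gene-poor flanks. Narrower calls numbered 52 (8.24%), against a background of 20.3%, and wider calls 7 (1.11%), against 12.2%. Gene-start domains gave 41 of the 52.

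For the combination over vehicle the median was -0.031 (-0.044 to -0.022), or -39 bp, with 57 domains narrower (background 16.4%) and 13 wider (background 17.3%). This comparison, belinostat over vehicle and AsiDNA over vehicle share the vehicle list, so they are not separate evidence. For the combination over belinostat the median was -0.0047 (-0.011 to 0), with 17 domains narrower (background 13%) and 21 wider (background 9.57%). The median was -0.016 at gene starts and 0.0074 at gene-poor flanks, and scaling turned the value over all domains to 0.015. For AsiDNA over vehicle it was 0.010 (0.0048 to 0.017), or 13 bp, with 12 domains narrower (background 8.96%) and 18 wider (background 18%). Scaling reversed this log2 value to -0.044. In bases the median was 19 bp over all regions, which are mostly narrower than the domains. A similar change in bases gives a larger log2 ratio there, so the reversal does not show a narrowing of the domains. With 1 list per group, a width change of the domains with AsiDNA has no settled direction here.

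The pairs belinostat over vehicle and combination over AsiDNA share no list, and the widths of all 4 lists chose the domains, so their joint calls are given as a description. Narrower in both past the ratio were 23 domains (3.65%, against a background of 6.84%). Wider in both were 0, against a background of 5.85%, a count that leaves room for up to 0.605% (Wilson upper bound). Regions of 1000 to 1500 bp had the same balance, with 6.72% narrower and 0.588% wider in both, so it is not particular to the domains. Of the 23, 20 were at gene starts, 1 was distal and 2 were gene-poor flank. In either size of change, 319 domains (50.6%) were narrower in both pairs and 102 (16.2%) wider in both. Over all regions the shares were 33.6% and 27.2%, and in regions of 1000 to 1500 bp 48.6% and 15.1%. Among gene-start domains the counts were 201 (56.1%) and 49 (13.7%), against 54.9% and 10.8% of gene-start regions of 1000 to 1500 bp. This balance is not particular to the domains either. Without the gene-poor flank domains, 21 of the 23 joint calls were left.

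**Figure D3:**
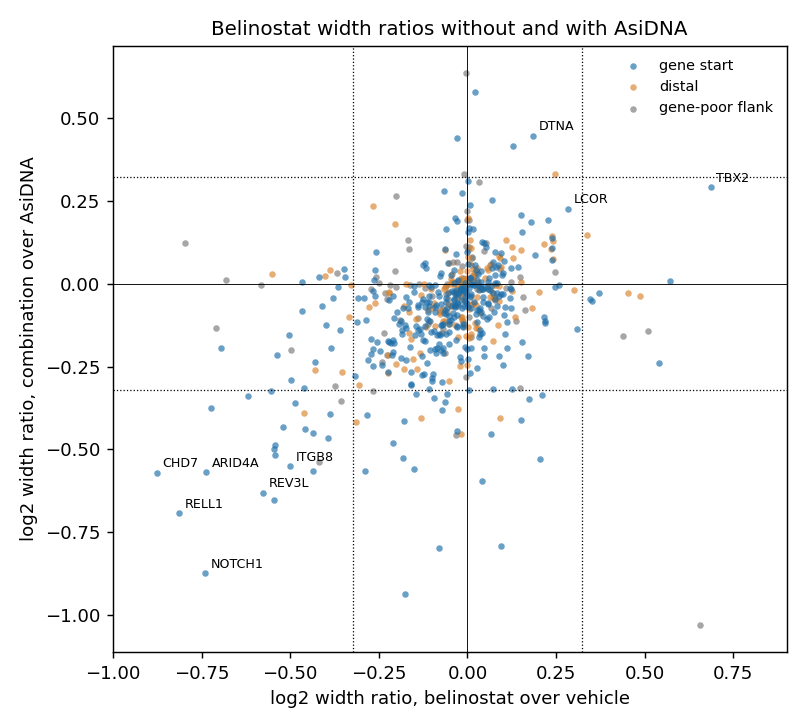
Log2 width ratio of each domain for belinostat over vehicle (x axis) and for the combination over AsiDNA (y axis), coloured by class. Dotted lines mark 25% wider and 20% narrower. The lower left corner holds 23 domains, led by NOTCH1, RELL1 and REV3L, and the upper right corner holds 0.

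NOTCH1, a receptor of the Notch pathway, ranked first among the domains narrower in both pairs, by the smaller of their 2 changes. Its domain, chr9:136544845-136546958, measured 1129 bp in the combination and 2070 bp with AsiDNA, a log2 ratio of -0.87. It measured 1265 bp with belinostat and 2114 bp with vehicle, a log2 ratio of -0.74. Both belinostat lists lay far below both others. The authors' fold enrichment of the peak was 10.7 in the combination, 9.66 with belinostat, 9.87 with AsiDNA and 8.67 with vehicle. These values are not scaled between lists. Ranked over all peaks of its own list, the peak stood at percentile 80.0 in the combination, 76.7 with belinostat, 82.9 with AsiDNA and 78.4 with vehicle.

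RELL1, a member of the RELT receptor family, had the same pattern at chr4:37685130-37687108, with 1128 bp in the combination, 1115 bp with belinostat, 1824 bp with AsiDNA and 1959 bp with vehicle. REV3L, the catalytic subunit of the translesion DNA polymerase zeta, lies at chr6:111482251-111484422 and had 1376 bp in the combination, 1343 bp with belinostat, 2131 bp with AsiDNA and 2003 bp with vehicle. CHD7, a chromatin remodeller, had 1425 bp in the combination, 1048 bp with belinostat, 2117 bp with AsiDNA and 1924 bp with vehicle. In these 3 domains each belinostat list was narrower than each list without it. CHD7 had both the largest and the smallest of their log2 ratios, -0.88 for belinostat over vehicle and -0.57 for the combination over AsiDNA.

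ARID4A and 2 starts shared by a pair of genes were also among the first 10. ARID4A, which belongs to the SIN3 histone deacetylase complex, had 1201 bp in the combination, 1133 bp with belinostat, 1783 bp with AsiDNA and 1888 bp with vehicle. The shared start of R3HDM1 and ZRANB3, an enzyme that remodels stalled forks, had 1227 bp in the combination, 1330 bp with belinostat, 1930 bp with AsiDNA and 1941 bp with vehicle. The shared start of NCAPD3, a condensin II subunit, and VPS26B, a retromer subunit, had 1298 bp in the combination, 1234 bp with belinostat, 1834 bp with AsiDNA and 1802 bp with vehicle. No enrichment of any function was tested among the 23.

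Among the others of the first 10 was ITGB8, an integrin chain that releases active TGF-beta. It had 1495 bp in the combination, 1553 bp with belinostat, 2191 bp with AsiDNA and 2197 bp with vehicle. MRC2, a collagen receptor, had 1296 bp in the combination, 1227 bp with belinostat, 1817 bp with AsiDNA and 1788 bp with vehicle. CCSAP, a spindle-associated protein, had 1155 bp in the combination, 1335 bp with belinostat, 1655 bp with AsiDNA and 1946 bp with vehicle. The remaining gene-start domains narrower in both pairs lie at LNPEP, PCGF1, VLDLR, STT3B, ANKIB1 with KRIT1, ZNF706, VASP, SERINC5, PPP3CA and PCM1.

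The domains wider with belinostat in both pairs did not reach the ratio in both, and the first 10 by the weaker change are named here. TBX2, a T-box transcription factor of development, at chr17:61399018-61401234, had 1780 bp in the combination, 1873 bp with belinostat, 1454 bp with AsiDNA and 1164 bp with vehicle. Its log2 ratios were 0.69 for belinostat over vehicle and 0.29 for the combination over AsiDNA, and the second became 0.35, past the ratio, after scaling. DTNA, which encodes a dystrobrevin, had 1649 bp in the combination, 1725 bp with belinostat, 1209 bp with AsiDNA and 1517 bp with vehicle. LCOR, a ligand-dependent corepressor of nuclear receptors, had 1682 bp in the combination, 1739 bp with belinostat, 1437 bp with AsiDNA and 1428 bp with vehicle. TCAF2, UBE2E3, CNTNAP2 and PGBD2 followed, each wider in both belinostat lists, with log2 ratios between 0.15 and 0.23. Distal domains of this kind lie 42.6 kb from ADAMTS17 and in the bodies of ERICH1 and EML1.

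**Figure D4:**
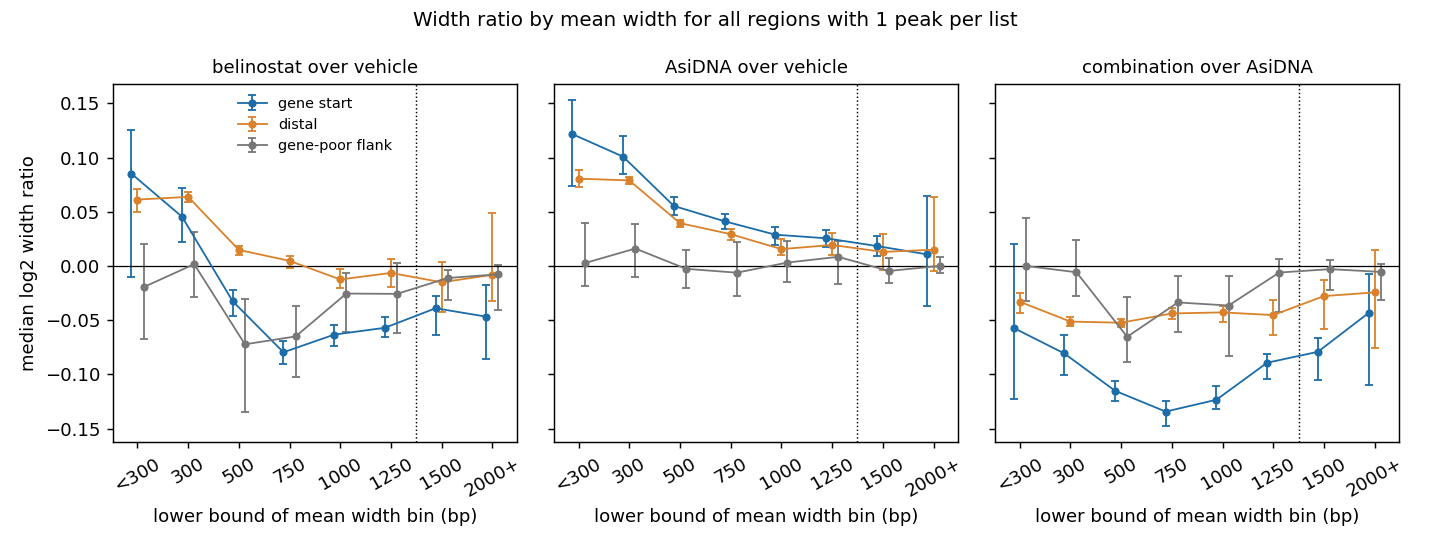
Median log2 width ratio (y axis) by mean width bin (x axis, lower bound in bp) over all regions with 1 peak per list, for 3 pairs (panels) and 3 classes (colours). Bars are 95% intervals over regions and the dotted line marks 1500 bp. At gene starts the belinostat pairs are lowest at 750 to 1000 bp, with -0.080 and -0.13.

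The narrowing at gene starts was not confined to the domains. Gene-start regions of 1000 to 1500 bp had medians of -0.061 (-50 bp) for belinostat over vehicle and -0.11 (-92 bp) for the combination over AsiDNA, beside -0.040 (-50.5 bp) and -0.074 (-89 bp) in gene-start domains. In bases the 2 sets were within 3 bp of each other in both pairs. Distal regions of 1000 to 1500 bp had -0.0100 and -0.044, beside -0.014 and -0.026 in distal domains. Over all regions with 1 peak per list the medians were 0.020 for belinostat over vehicle and -0.058 for the combination over AsiDNA. For belinostat over vehicle, gene-start regions of 1000 to 1500 bp and all regions thus differed in sign, but all regions are mostly narrower and distal. The sign also varied with width within a class. Gene-start regions below 500 bp had positive medians in both width bins, 0.085 (-0.010 to 0.13) and 0.045 (0.022 to 0.072). Distal regions of 1000 to 1500 bp had a negative one. The difference in sign is therefore not particular to gene starts.

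The belinostat pairs differed in which borders of gene-start domains moved. For the combination over AsiDNA the upstream border moved by a median of -29.5 bp (-41 to -18) and the downstream border by -29 bp (-43 to -16), where a negative value is toward the gene start. For belinostat over vehicle the downstream border moved by -21 bp (-40 to -6) and the upstream one by -2 bp (-11 to 5). For AsiDNA over vehicle the values were 6.5 bp (-1 to 19) upstream and 0 bp (-6 to 6) downstream. For belinostat over vehicle the downstream interval thus left out 0 and the upstream one did not. Gene-start regions of 1000 to 1500 bp had -2 bp upstream and -30 bp downstream for belinostat over vehicle. For the combination over AsiDNA they had -22 bp upstream and -46 bp downstream. The upstream contrast between the pairs is thus not particular to the domains.

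**Figure D5:**
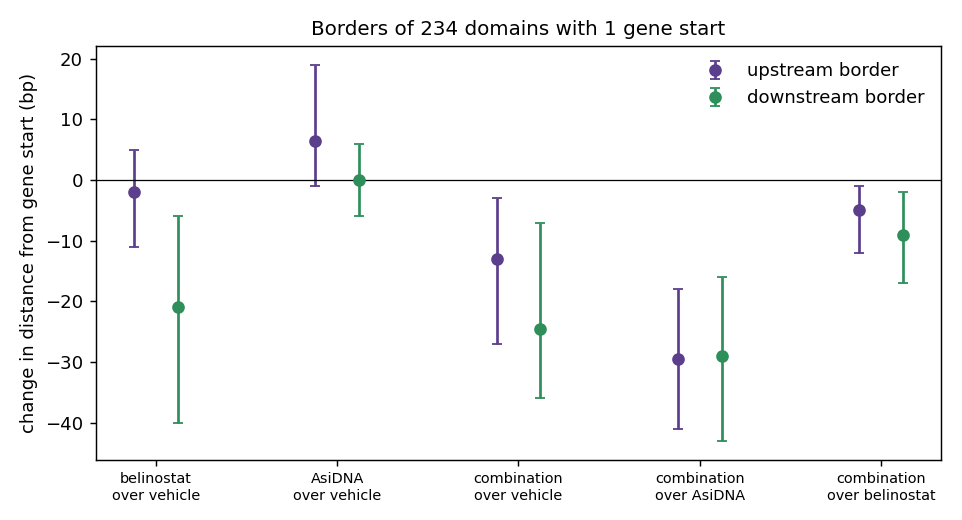
Median change in bp of the distance between the gene start and the upstream or downstream border (colours) for 5 pairs of lists, over 234 gene-start domains with a single start of known strand. Bars are 95% intervals over domains and a negative value is a border nearer to the gene start. The combination over AsiDNA has -29.5 bp upstream and -29 bp downstream.

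AsiDNA changed few domains the same way with and without belinostat. In AsiDNA over vehicle and the combination over belinostat, which share no list, 5 domains were wider in both (0.79%, background 2.36%) and 1 was narrower in both (0.16%, background 1.8%). The domain 42.6 kb from ADAMTS17, chr15:99926768-99928846, ranked first among the wider ones, with 2079 bp in the combination and 1367 bp with belinostat, and 1652 bp with AsiDNA and 1151 bp with vehicle. ZNF800, a zinc finger gene, had 1859 bp in the combination and 1120 bp with belinostat, and 2160 bp with AsiDNA and 1625 bp with vehicle. The shared start of ANKIB1 and KRIT1, a gene of cerebral cavernous malformation, had 1541 bp in the combination and 1138 bp with belinostat, and 2079 bp with AsiDNA and 1631 bp with vehicle. The other 2 lay in gene-poor flanks, and 3 of the 5 fell under the ratio in AsiDNA over vehicle after scaling.

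The domain narrower in both AsiDNA pairs was at PAWR, which encodes a pro-apoptotic protein. It is chr12:79690137-79692234 and had 1232 bp in the combination and 1587 bp with belinostat, and 1392 bp with AsiDNA and 1895 bp with vehicle. The shared start of ACTA2, a smooth muscle actin, and FAS, a death receptor, came near, with 1447 bp in the combination and 1884 bp with belinostat, and 1536 bp with AsiDNA and 1834 bp with vehicle. Its log2 ratios were -0.38 for the combination over belinostat and -0.26 for AsiDNA over vehicle. CCSAP, narrower with belinostat, was also narrower with AsiDNA, with log2 ratios of -0.21 and -0.23.

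The widths of a domain differed little between lists in some domains and widely in others. The spread of the 4 widths, highest minus lowest, had a median of 11.3% of the mean width (10.3% to 12.8%), against 15.3% in regions of 1000 to 1500 bp. It stayed within 5% of the mean at 132 of the 631 domains (20.9%), against 9.74% of those regions. The median spread was 14.0% at gene starts, 9.02% at distal domains and 8.90% at gene-poor flanks. In regions of 1000 to 1500 bp it was 17.3%, 12.8% and 17.7%, so the low median at flanks did not hold there. The spread stayed within 5% of the mean at 36.1% of gene-poor flank domains (28.1% to 44.9%), 25.8% of distal ones and 13.7% of gene-start ones. In regions of 1000 to 1500 bp these shares were 21.1%, 11.2% and 7.87%. All 4 peaks reached 1500 bp at 82.8% of flank, 63.6% of distal and 51.4% of gene-start domains. Flank domains were also the widest, with 62 of 122 at a mean of 2000 bp or more. The most even domain, chr5:49643671-49646258 in a gene-poor flank, measured 2578 bp in the combination, 2583 bp with belinostat, 2574 bp with AsiDNA and 2582 bp with vehicle.

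The most even gene start was that of ANKH, a transporter that controls extracellular pyrophosphate, with 1707 bp in the combination, 1726 bp with belinostat, 1711 bp with AsiDNA and 1705 bp with vehicle. It was followed by LUC7L2, a splicing factor that shares its start with FMC1 and a transfer RNA gene, with 1897 bp in the combination, 1911 bp with belinostat, 1903 bp with AsiDNA and 1885 bp with vehicle. ABCC4, an exporter of cyclic nucleotides, had 1492 bp in the combination, 1502 bp with belinostat, 1507 bp with AsiDNA and 1520 bp with vehicle. PCGF5, also among the widest, differed by 43 bp over the 4 lists. GC-rich promoters were found both at an even domain, ANKH, and at changing ones, NOTCH1 and REV3L.

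The 16 gene lists, which include markers of other cell types, had 285 entries, and 10 of these had a domain. Of all 19974 protein-coding genes, 436 had one (2.18%, 1.99% to 2.39%), and of 16 lists, 9 had members with one. Among AP-1 and immediate early genes these were EGR1 and EGR3 (2 of 25). EGR1 measured 1901 bp in the combination, 1847 bp with belinostat, 1886 bp with AsiDNA and 1883 bp with vehicle. EGR3 measured 1793 bp in the combination, 1784 bp with belinostat, 1790 bp with AsiDNA and 1685 bp with vehicle. Both genes are switched on within minutes of a stimulus, and neither domain changed by the ratio in any pair.

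Another 8 lists had 1 member each. TEAD4, a partner of YAP and a regulator of the mesenchymal state (1 of 18), had 1638 bp in the combination, 1691 bp with belinostat, 1782 bp with AsiDNA and 1754 bp with vehicle. SMAD2, which carries the TGF-beta signal (1 of 16), had 1517 bp in the combination, 1521 bp with belinostat, 1707 bp with AsiDNA and 1758 bp with vehicle. THBS1, a matrix protein (1 of 16), had 1714 bp in the combination, 1427 bp with belinostat, 1766 bp with AsiDNA and 1746 bp with vehicle. PRKDC, the catalytic subunit of DNA-PK, the kinase that AsiDNA is known to activate (1 of 18), had 1623 bp in the combination, 1646 bp with belinostat, 1713 bp with AsiDNA and 1720 bp with vehicle. All 4 were narrower in both belinostat pairs, by less than the ratio.

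The others were RPL7, of the large ribosomal subunit (1 of 20), H1-2, a linker histone (1 of 20), TP53I3, a target of p53 (1 of 14), and TBX2 among developmental transcription factors (1 of 30). H1-2 had 1789 bp in the combination, 1774 bp with belinostat, 1755 bp with AsiDNA and 1831 bp with vehicle. TP53I3 had 1477 bp in the combination, 1477 bp with belinostat, 1588 bp with AsiDNA and 1704 bp with vehicle. The lists of YAP-TEAD targets (12 genes), glial identity (16), HOX genes (28) and histone deacetylases with their complexes (16) had 0 members with a domain. So did the markers of neurons, of blood and endothelium and of epithelium, at 12 genes each. With 12 genes, a count of 0 leaves room for up to 24.2% (Wilson upper bound).

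The threshold of 1500 bp cut through a continuous range. Just inside it lay the start of PCM1, a centriolar satellite gene, at a mean of 1500.75 bp, a domain in the body of RAC2 at 1501 bp and ARID4A at 1501.25 bp. Just outside lay a region in the body of BCR at 1499.75 bp, the start of NFATC3 at 1499.75 bp and a region 13.7 kb from TCAF1 at 1499.25 bp. The single peaks behind such means can differ widely, and those of PCM1 measured 1293 bp in the combination, 1247 bp with belinostat, 1751 bp with AsiDNA and 1712 bp with vehicle.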

How the data were processed

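NicE-seq libraries from 16 U87 samples were grouped by the treatment in their titles, and the labels name 1 peak list for the 4 libraries of a group. The submitters' processing notes name Bowtie2, deepTools, MACS2, Picard, SAMtools and Trim Galore 0.5.0 with the hg38 build. Not given in the sources used here are their roles and options, any control or blacklist, and how 4 libraries became 1 list. Each deposited peak carries a fold enrichment (a ratio), a q-value on the −log10 scale and a score, all as the authors' peak caller gave them and not scaled between lists. The lists have no header line and were read by the narrowPeak column layout. The score and the p-value column of each list (4 p-value columns) were not used in any result. The deposited lists hold no read counts, so depth is unknown and intervals cover counting error, or the spread over domains, only.

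Positions are 1-based and a width is the end minus the start of a peak. Gene starts and strands were taken from the RefSeq promoter table (GRCh38.p14) for 15812 of 19974 protein-coding genes. For the other 4162 either end of the gene counted. Exons, introns, repeats and blacklists were not used. Shares have Wilson 95% intervals and medians have binomial order-statistic intervals. With 1 list per group no test was made, and p-values are not given. Merging, the domain rule and the width ratio were tested on simulated lists and recovered 100% of 470 simulated domains. Python 3.11.15, pandas 2.3.3, numpy 2.4.6, scipy 1.17.1 and matplotlib 3.10.9 were used.

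Named domains were the 20 widest, the 10 wider and 10 narrower in both belinostat pairs ranked by the weaker change, 5 and 5 likewise for AsiDNA, the 5 widest more than 1000 bp from any gene, members of 16 gene lists, 3 on either side of the threshold and the 10 most even. The widest gene starts, the widest distal domains, the most even gene starts and the 3 classes were added after the values were seen. The domains and lists were chosen with earlier results of these data known. Alternatives tried were other width thresholds, overlaps, q-values, ratios, gene windows and scalings.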

Additional observations from a re-analysis of the deposited data

Results flagged for a closer look

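The domain chr9:45242645-45244660, a gene-poor flank domain, moved past the ratio in opposite directions in the 2 belinostat pairs, and likewise in the 2 AsiDNA pairs. It measured 987 bp in the combination, 1873 bp with belinostat, 2016 bp with AsiDNA and 1189 bp with vehicle. The log2 ratio was 0.66 for belinostat over vehicle and -1.03 for the combination over AsiDNA. It was 0.76 for AsiDNA over vehicle and -0.92 for the combination over belinostat. It was thus wider with each drug alone and narrow in the combination and with vehicle. The difference was not tested, since each group has 1 list. It was the only one of the 631 domains with opposite calls in either set of pairs.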

How the results depend on the processing

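No paired analysis was possible because each group has 1 peak list for its 4 libraries, and for the same reason no replicate could be left out. The number of domains was 1857 with the threshold 250 bp lower, 101 with it 500 bp higher, 381 when each of the 4 peaks had to reach 1500 bp, and 1533 when several peaks of a list were joined into a span. It lay between 627 and 665 with a pairwise overlap of 50%, a −log10 q of at least 5 or all sequences. Gene-poor flank domains numbered 201 with the lower threshold, 62 with the higher one and 251 with spans. The share at gene starts was 62.4% with the lower threshold, 16.8% with the higher one and 70.3% without the flanks, an alternative chosen after seeing the data, as were other flank lengths. Listed genes with a domain, 10 as reported, numbered 24 with the lower threshold, 0 with the higher one and 32 with spans.

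With the higher threshold the median log2 ratio was -0.014 for belinostat over vehicle, 0.0026 for AsiDNA over vehicle, -0.0066 for the combination over vehicle, -0.014 for the combination over AsiDNA (-0.043 at gene starts) and 0.0049 for the combination over belinostat. With the lower one it was -0.044 for the combination over vehicle and -0.066 for the combination over AsiDNA. Without the flanks it was -0.064 for the combination over AsiDNA and -0.012 for the combination over belinostat. Scaling to a median log2 ratio of 0 over all regions, which subtracts 0.054 for AsiDNA over vehicle and -0.058 for the combination over AsiDNA, reversed these medians to -0.044 and 0.0089. It gave -0.046 for belinostat over vehicle, 0.015 for the combination over belinostat and -0.016 at gene starts for the combination over AsiDNA. The subtracted medians come mostly from narrower regions, so on the log2 scale they need not suit the domains.

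When 10% wider counted as a call, belinostat over vehicle had 24.2% of domains narrower and 8.08% wider. AsiDNA over vehicle had 9.83% narrower and 11.9% wider, and the combination over vehicle 26.0% narrower and 7.13% wider. The combination over AsiDNA had 27.3% narrower and 5.55% wider, and the combination over belinostat 11.6% narrower and 9.19% wider. In both belinostat pairs 13.3% were narrower and 1.74% wider. When 50% wider was needed, belinostat over vehicle had 1.58% narrower and 0.317% wider, AsiDNA over vehicle 0.158% narrower and 0.792% wider, and the combination over vehicle 1.58% narrower and 0.475% wider. The combination over AsiDNA then had 1.43% narrower and 0.158% wider, the combination over belinostat 0.475% narrower and 0.792% wider, and 0.317% were narrower in both belinostat pairs. With the higher width threshold, belinostat over vehicle had 3.96% narrower and 0.990% wider, AsiDNA over vehicle 0.990% narrower and 0% wider, and the combination over vehicle 1.98% narrower and 0% wider. The combination over AsiDNA had 0% in both directions, the combination over belinostat 1.98% wider, and 0% were narrower in both belinostat pairs. For the combination over AsiDNA, 12.6% were narrower with the lower threshold and 6.18% after scaling, and 2.35% were wider with spans. For the combination over belinostat, 5.15% were wider with spans, and 4.46% were narrower when the 2 lists outside the pair chose the domains. A higher threshold or ratio leaves fewer domains or calls by construction, and the cause of the other differences was not tested.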
